A study of Homo sapiens with 24 samples.

Results

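The miRNAs described here are 52 late-numbered human microRNAs, counted in 24 small RNA libraries of SBC-3, a small cell lung cancer line. A member is a mature miRNA whose row lies, within 3 bases and on the same strand, inside a GENCODE miRNA gene named MIR plus a number of 3000 or more, with a total of at least 240 counts over the 24 libraries. The chosen row is the locus with the largest total for each mature miRNA, and MIR4454, MIR6844, MIR12135 and MIR12136 were left out by the rule. The members are 52 of the 2652 mature miRNAs in the tables and come from 48 hairpins. By number, 21 lie from 3000 to below 4000, 19 from 4000 to below 5000 and 12 at 5000 and over. The members were thus chosen by their total counts over all libraries, so their abundance is given as a description.

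miRNA genes are numbered in the order in which they were entered in the registry, so high numbers belong to genes found late, mostly by deep sequencing. A primary transcript is cut in the nucleus by Drosha with DGCR8 and the hairpin is cut in the cytoplasm by Dicer, which leaves a duplex of a 5p and a 3p arm. One arm is usually kept by an Argonaute protein and pairs with target mRNAs through its seed, and for most late-numbered miRNAs no function is known. Many of them lie in introns of protein-coding genes and are found only in primates.

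All 8 groups were SBC-3 cells of the WT genotype, reverse transfected with 10 nM of an oligonucleotide and harvested at 72 h, with 3 replicates each. siCtrl is the control siRNA, siSFPQ-2 and siSFPQ-3 are siRNAs against SFPQ, and siNONO-3 and siNONO-4 are siRNAs against NONO, both proteins being nuclear RNA-binding partners. ASO-Ctrl is the control antisense oligonucleotide, and ASO-NEAT1-1047 and ASO-NEAT1-1473 are antisense oligonucleotides against NEAT1, a long noncoding RNA that scaffolds nuclear bodies called paraspeckles. The series asks how loss of SFPQ alters miRNA levels and whether loss of NONO or NEAT1 does the same. The labels do not say whether replicates are separate cultures, so p-values measure the spread between these samples, which may be technical. The targeted transcripts were not measured in these libraries, and SBC-3 is a single cell line.

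The sequences below belong to 12 members called after SFPQ knockdown, to the most abundant member, to a pair of members that were both high in replicate 1 of the siNONO groups, and to the members that resemble an abundant miRNA. They are the mature sequences in RefSeq GRCh38.p14, 5′ to 3′, with the seed (bases 2 to 8) in capitals, and positions are those of the tables on hg38. RefSeq held a sequence for 44 of the 52 members. The first 7 were higher after SFPQ knockdown.
miR-4677-3p (chr1:243346225-243346246, plus strand): uCUGUGAGaccaaagaacuacu
miR-4677-5p (chr1:243346188-243346209, plus strand): uUGUUCUUuggucuuucagcca
miR-4791 (chr3:19314907-19314924, minus strand): uGGAUAUGaugacugaaa
miR-4523 (chr17:29390668-29390688, plus strand): gACCGAGAgggccucggcugu
miR-3174 (chr15:90006764-90006786, plus strand): uAGUGAGUuagagaugcagagcc
miR-4425 (chr1:25023552-25023573, plus strand): uGUUGGGAuucagcaggaccau
miR-4485-3p (chr11:10508277-10508296, minus strand): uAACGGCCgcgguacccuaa
The next 5 were lower after SFPQ knockdown.
miR-3942-5p (chr15:35372321-35372342, minus strand): aAGCAAUAcuguuaccugaaau
miR-3942-3p (chr15:35372280-35372300, minus strand): uUUCAGAUaacaguauuacau
miR-4742-3p (chr1:224398227-224398249, minus strand): uCUGUAUUcuccuuugccugcag
miR-3115 (chr1:23044310-23044329, plus strand): aUAUGGGUuuacuaguuggu
miR-4775 (chr2:207754816-207754837, plus strand): uUAAUUUUuuguuucggucacu
The last 7 are the most abundant member, a pair high in replicate 1 of both siNONO groups, and 2 members each beside the abundant miRNA it resembles.
miR-3613-5p (chr13:49996465-49996486, minus strand): uGUUGUACuuuuuuuuuuguuc
miR-5588-5p (chr3:185253252-185253272, minus strand): aCUGGCAUuagugggacuuuu
miR-5094 (chr15:89850690-89850711, minus strand): aAUCAGUGaaugccuugaaccu
miR-4429 (chr2:11540652-11540671, minus strand): aAAAGCUGggcugagaggcg
miR-320b (chr1:224257049-224257070, minus strand): aAAAGCUGgguugagagggcaa
miR-4510 (chr15:35926863-35926884, plus strand): uGAGGGAGuaggauguaugguu
let-7c-5p (chr21:16539838-16539859, plus strand): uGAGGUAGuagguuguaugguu

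The 2 arms of miR-4677 carry different seeds, and so do the 2 arms of miR-3942. miR-4429 has the seed of miR-320b and differs from it over its 20 bases by U11C, G19C and C20G (the base of miR-320b, the position from the 5′ end, then the base of miR-4429). miR-4510 differs from let-7c-5p over 22 bases by U6G and U13A, of which the first lies in the seed. Partners with the same seed were sought only among miRNAs of at least 240 counts that had a sequence, so others would be missed. Of the 44 members with a sequence, miR-4429 alone had such a partner (2.27%). The partners found were miR-320b, miR-320c and miR-320d. Among miRNAs numbered under 1000 at that count and with a sequence, 143 of 370 shared a seed (38.6%). Of those with 240 to below 1000 counts, 15 of 95 did (15.8%).

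The late numbers are sparsely filled in these cells. Of 1421 late-numbered mature miRNAs in the tables, 348 had no count in any library and 54 reached 240 counts (3.80%), including miR-4454 and miR-6844. Of 936 mature miRNAs numbered under 1000, 419 reached 240 counts (44.8%). A count of 0 over all libraries allows up to 3 counts in 77243345, which is 0.0388 CPM (counts-per-million of all counts), and covers counting error only. Of the members, 33 had a total below 1000 counts, 18 had from 1000 to below 10000, and miR-3613-5p had 10593. The members together had 1611 to 4150 counts per library, and 50 to 52 of them were detected in each.

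Features that the rule did not use are given as shares, without a test. Of the 52, 31 lie in introns, 6 in exons and 15 between genes of the GENCODE annotation. Only miR-3187-3p and miR-3176 had another miRNA gene within 10 kb on the same strand, 2 of 52 (3.85%), against 158 of 419 under number 1000 (37.7%). The other arm of the hairpin is listed for 23 members and reached 240 counts for 8 of them. Under number 1000 the other arm is listed for 349 of 419 and reached 240 counts for 280. The median GC content was 47.3% in members and 45.5% in the early-numbered. The hairpins folded with RNAfold had a median minimum free energy of -0.427 kcal/mol per base in 37 members and -0.456 in 299 early-numbered miRNAs. These early-numbered miRNAs were more abundant, with a median total of 5618 against 504 in members. In the bin of 240 to below 1000 counts, 3.03% of members and 32.7% of early-numbered miRNAs had such a neighbouring gene. There the other arm was listed for 12 of 33 members and 81 of 104 early-numbered miRNAs, and reached 240 counts for 4 and 65. The median energy in that bin was -0.430 and -0.485.

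The libraries held 2038382 to 4279644 counts. The first principal component of log2 CPM (61.5% of the variance) placed the 6 siSFPQ libraries at 18.08 to 28.10 and the other 18 below 0. Replicate 1 of siCtrl stood apart from its group on the second component (9.94%), at 11.74 against -8.18 and -7.74, and so did replicate 3 of ASO-NEAT1-1047, at 10.17 against -7.75 and -3.38. With smaller gaps, replicate 1 of ASO-Ctrl stood at -4.46 against 5.67 and 5.17, and replicate 1 of siNONO-4 at -3.92 against 4.72 and 6.86. Replicate 1 of siSFPQ-2 was at -4.6 against 2.27 and 3.7. Of the neuroendocrine markers, miR-9-5p stood at 82511 to 97511 CPM and miR-7-5p at 9543 to 16668 in the 6 control libraries, while miR-375-3p was at 0.257 to 1.14. miR-9-3p was at 6314 to 8615 CPM there, miR-129-5p at 19.3 to 42.8, miR-153-3p at 0.749 to 4.40 and miR-124-3p at 0 to 0.852. Of the blood-cell markers, miR-142-3p was at 44.6 to 91.3 CPM and miR-142-5p at 2.25 to 12.9 CPM there. The blood markers miR-451a, miR-223-3p and miR-150-5p were at or below 0.550 CPM, and miR-486-5p and the liver marker miR-122-5p had no count in any library. The endothelial miR-126-3p was at 792 to 1131 CPM in the same libraries. Of the muscle markers, miR-1-3p was at 289 to 524 CPM there, miR-133a-3p at 29.6 to 107 and miR-206 at 3.59 to 6.25. Of the remaining markers, miR-143-3p was at 136 to 287 CPM and miR-145-5p at or below 6.24 CPM in these libraries.

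Loss of SFPQ moved members in both directions. Both siSFPQ groups together against siCtrl gave 8 members higher and 11 lower at an adjusted p under 0.05 (edgeR's quasi-likelihood test, adjusted over all 626 tested miRNAs). That is 36.5% of the 52, against 48.2% of all tested miRNAs. By direction, 15.4% of members were higher against 25.6% of all tested, and 21.2% were lower against 22.7%. The median log2 fold change of the members was -0.13, and that of all tested miRNAs was 0.02. All 52 members passed the filter on low counts. The total that chose the members includes the siSFPQ libraries, so a rise there helps a member to reach 240 counts. With all 24 libraries at the mean count of the other 18, the total would be 224 for miR-4791, 183 for miR-4425 and 143 for miR-4523, all below the threshold. The remaining 5 higher members would reach it. The count of higher members is therefore a description and supports nothing. An unadjusted p under 0.05 was found for 24 of them, and DESeq2 called 9 higher and 11 lower. In bulk RNA, fewer molecules per cell and fewer cells that make a miRNA cannot be told apart.

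**Figure D1:**
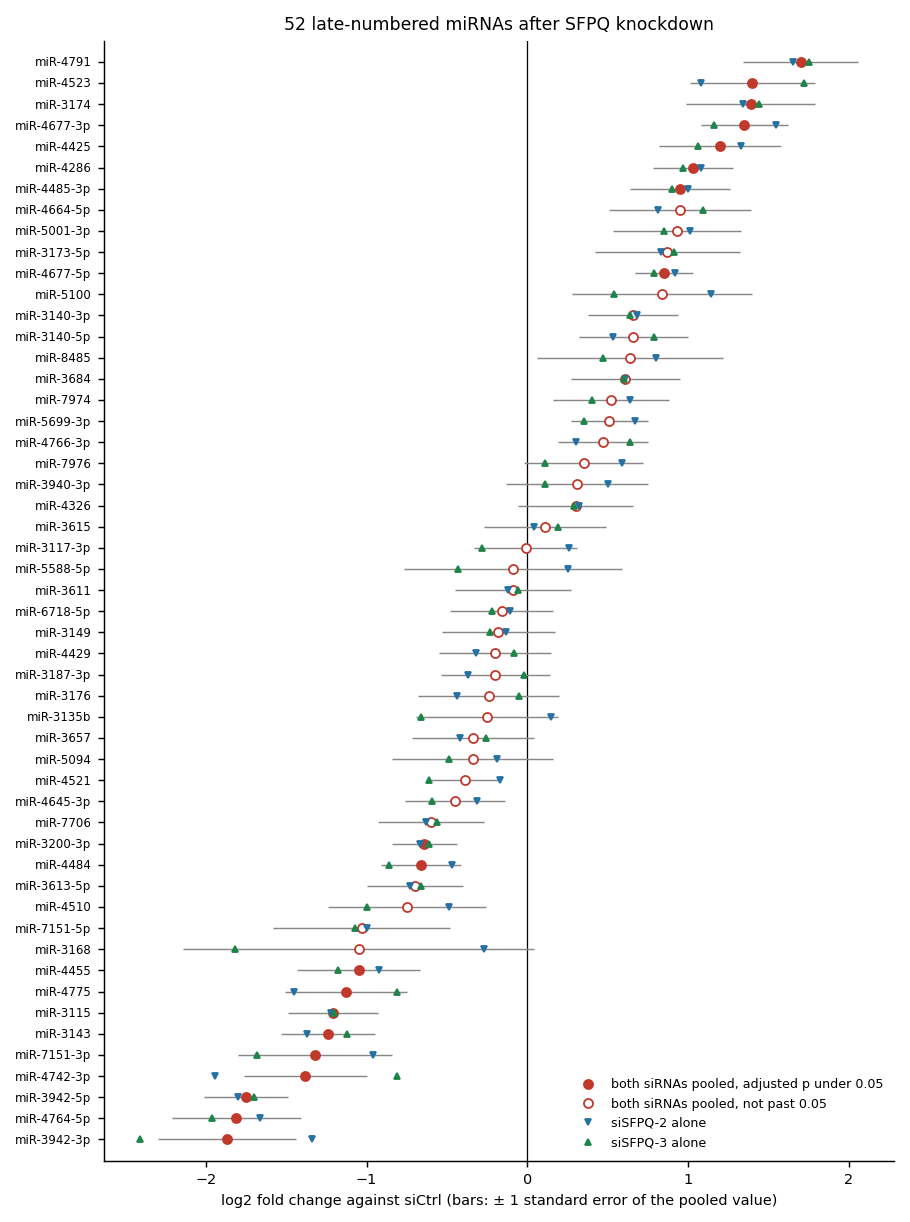
log2 fold change of each of the 52 members against siCtrl, with both SFPQ siRNAs pooled (circles, bars ± 1 standard error, filled where the adjusted p was under 0.05) and each siRNA alone (triangles). The 8 filled points on the right run from 0.85 to 1.70 and the 11 on the left from -0.64 to -1.87, and both triangles of every filled point lie on the same side of 0.

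Each siRNA alone gave the same sign as the pooled value for all 19 called members. siSFPQ-2 called 15 of the 52 members (28.8%, against 38.7% of all tested miRNAs) and siSFPQ-3 called 18 (34.6%, against 44.4%). Of the 52, 7 were called higher with each of the siRNAs (13.5%, against 20.3% of all tested) and 6 lower (11.5%, against 14.2%), and none in opposite directions. The direct comparison of siSFPQ-3 with siSFPQ-2 called no member, and its smallest adjusted p among members was 0.66. By block of numbers, 1 member was higher and 5 lower of the 21 in the 3000s, 7 were higher and 5 lower of the 19 in the 4000s, and miR-7151-3p alone was lower among the 12 at 5000 and over. The difference between blocks was not tested.

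The most abundant member that rose was miR-4677-3p, from an intron of SDCCAG8, a gene for a centrosomal protein. Its level was 88.4, 77.0 and 78.7 CPM in siCtrl replicates 1 to 3, 166, 237 and 310 CPM with siSFPQ-2, and 153, 176 and 219 CPM with siSFPQ-3. Every siSFPQ library was above every siCtrl library. The log2 fold change was 1.35 ± 0.27 (SE), with an adjusted p of 0.000259. Of the other 15 libraries, the highest was replicate 3 of ASO-NEAT1-1047 at 147 CPM.

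The largest rise belonged to miR-4791, which lies between genes on chromosome 3. It had 4.87, 2.32 and 2.75 CPM in siCtrl, 11.2, 5.05 and 15.7 CPM with siSFPQ-2 and 10.9, 9.42 and 13.7 CPM with siSFPQ-3, and a log2 fold change of 1.70 ± 0.36 (SE, adjusted p = 0.000545). The groups did not overlap, though replicate 2 of siSFPQ-2 stood barely above the highest control. Of its 408 counts, 240 lay in the 6 siSFPQ libraries, and its place as the largest rise is helped by the choice of members on that total. In counts, the siCtrl libraries held 13, 7 and 5 and the siSFPQ-3 libraries 48, 43 and 53.

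miR-3174 is read from an intron of ZNF710, a zinc finger gene. Its level was 10.1, 2.66 and 6.05 CPM in siCtrl, 14.8, 16.4 and 16.1 CPM with siSFPQ-2 and 18.8, 18.4 and 13.7 CPM with siSFPQ-3. The 6 siSFPQ libraries lay closely together above all 18 others, the highest of which was replicate 1 of siCtrl. The log2 fold change was 1.39 ± 0.40 (SE, adjusted p = 0.00704), and without siCtrl replicate 2 it was 0.99 with an adjusted p of 0.0533.

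miR-4523 lies in an exon of TAOK1, a kinase gene, and is one of the members closest to the threshold of 240 counts. It had 0.749, 2.99 and 2.75 CPM in siCtrl, 4.52, 4.73 and 4.39 CPM with siSFPQ-2 and 6.78, 7.89 and 6.72 CPM with siSFPQ-3. Neither siSFPQ group overlapped siCtrl, and the log2 fold change was 1.40 ± 0.39 (SE, adjusted p = 0.00535). The 3 siCtrl libraries held 2, 9 and 5 counts of it. Of its 241 counts, 134 lay in the 6 siSFPQ libraries, without whose higher level it would not be a member, so its test is no independent evidence of a rise.

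miR-4425, between genes on chromosome 1, stood at 3.00, 2.66 and 3.30 CPM in siCtrl, at 4.22, 11.4 and 6.95 CPM with siSFPQ-2 and at 7.01, 4.60 and 6.98 CPM with siSFPQ-3, with no overlap. Its log2 fold change was 1.20 ± 0.38 (SE, adjusted p = 0.0131), and without siCtrl replicate 2 it was 1.11 with an adjusted p of 0.0529. Of its 285 counts, 148 lay in the 6 siSFPQ libraries. Without their higher level miR-4425 would not be a member, so its test is no independent evidence of a rise. miR-4286, a row of 17 bases between genes, had 12.0, 15.6 and 16 CPM in siCtrl, 31.4, 37.9 and 22.7 CPM with siSFPQ-2 and 38.0, 25.6 and 21.4 CPM with siSFPQ-3. These groups did not overlap either, and the log2 fold change was 1.03 ± 0.25 (SE, adjusted p = 0.00187).

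The search for matches in other transcripts covered only the 44 members with a sequence. Among these, miR-4485-3p was the one whose whole sequence also occurs in transcripts other than its host, MTRNR2L8. The other matches are MT-RNR2, the mitochondrial 16S ribosomal RNA, and MTRNR2L12, a nuclear copy of it, so reads from these cannot be told apart from the miRNA. It had 4.12, 6.31 and 3.85 CPM in siCtrl, 7.54, 12.9 and 8.78 CPM with siSFPQ-2 and 8.82, 8.98 and 9.56 CPM with siSFPQ-3. Its log2 fold change was 0.95 ± 0.31 (SE, adjusted p = 0.0133), and without siCtrl replicate 1, or without replicate 3, it was 0.81 with an adjusted p of 0.0543.

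**Figure D2:**
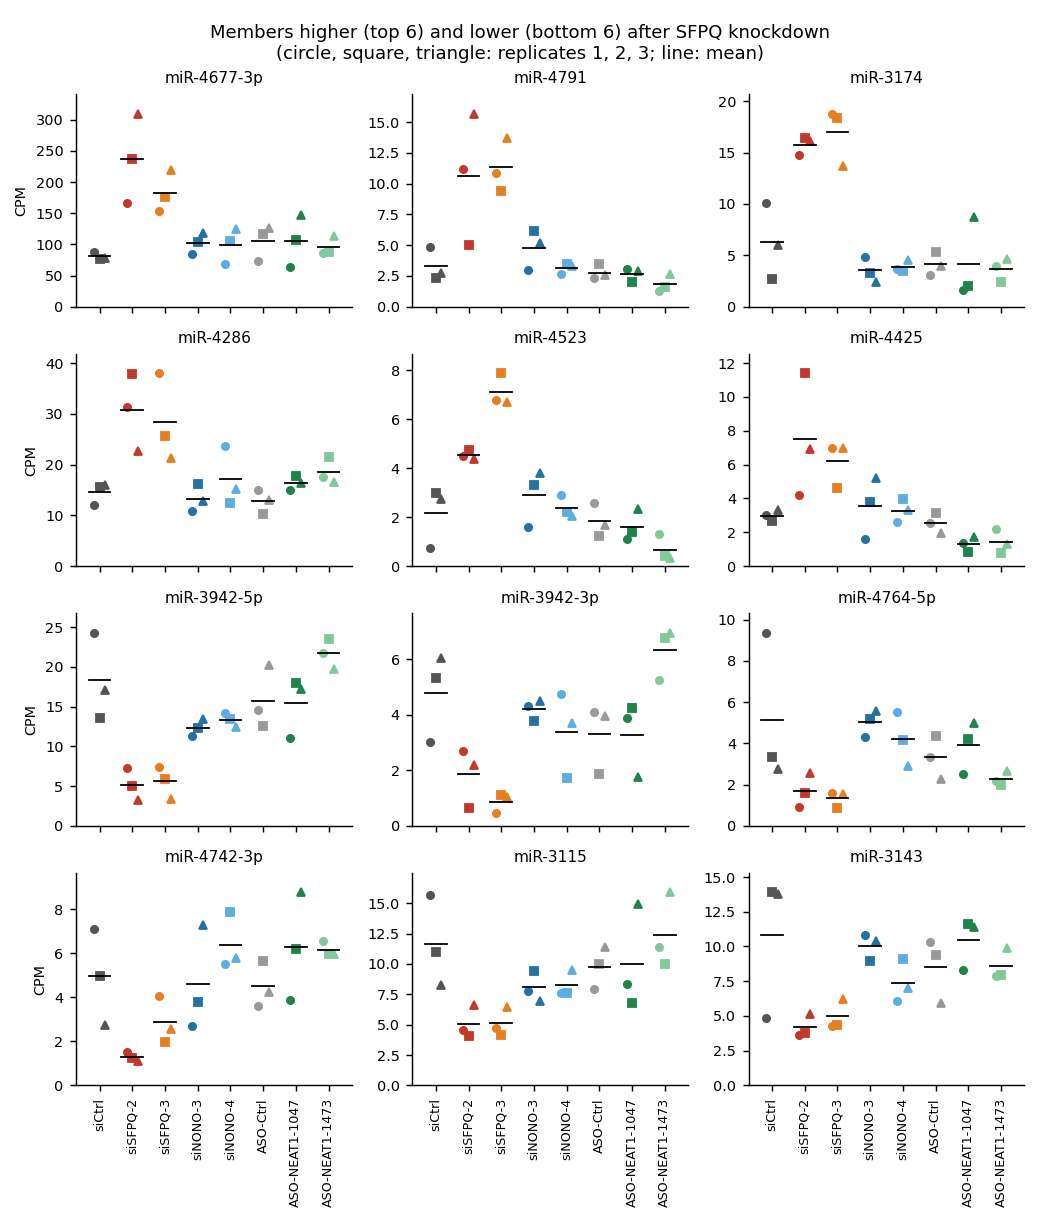
Level in CPM of 12 members in each library, by group, with circles, squares and triangles for replicates 1, 2 and 3 and a line at the group mean. In the upper 6 panels the 2 siSFPQ groups have the highest means, and in the lower 6 they have the lowest, for example 5.19 and 5.58 CPM for miR-3942-5p against 18.3 in siCtrl.

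The fall with the smallest adjusted p was that of miR-3942-5p, from an intron of DPH6, a gene of diphthamide synthesis. Its level was 24.3, 13.6 and 17.1 CPM in siCtrl, 7.24, 5.05 and 3.29 CPM with siSFPQ-2 and 7.46, 5.92 and 3.36 CPM with siSFPQ-3. Every siSFPQ library was below all 18 others, the lowest of which was replicate 1 of ASO-NEAT1-1047 at 11.1 CPM. The log2 fold change was -1.75 ± 0.26 (SE, adjusted p = 9.61e-06).

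The level of miR-4764-5p was 9.37, 3.32 and 2.75 CPM in siCtrl, 0.905, 1.58 and 2.56 CPM with siSFPQ-2 and 1.58, 0.877 and 1.55 CPM with siSFPQ-3, a log2 fold change of -1.81 ± 0.40 (SE, adjusted p = 0.000818). The groups did not overlap, and replicate 1 of siCtrl was 3.09 times the mean of the other 2 controls. Without it the log2 fold change was -1.08 (adjusted p = 0.0436). Each siSFPQ library held between 3 and 7 counts of it.

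miR-4742-3p, from an intron of WDR26, a subunit of a ubiquitin ligase, fell with both siRNAs pooled. It had 7.12, 4.98 and 2.75 CPM in siCtrl, 1.51, 1.26 and 1.1 CPM with siSFPQ-2 and 4.07, 1.97 and 2.58 CPM with siSFPQ-3. The siSFPQ-3 libraries overlapped siCtrl and the siSFPQ-2 libraries did not. The log2 fold change was -1.38 ± 0.38 pooled (SE, adjusted p = 0.00497), -1.94 for siSFPQ-2 alone and -0.81 for siSFPQ-3 alone, and the direct difference between the siRNAs did not pass (log2 difference 1.12 ± 0.49, adjusted p = 0.660).

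miR-3115 lies in an intron of KDM1A, a histone demethylase gene, and had 15.7, 11 and 8.25 CPM in siCtrl, 4.52, 4.10 and 6.59 CPM with siSFPQ-2 and 4.75, 4.16 and 6.46 CPM with siSFPQ-3. Its groups did not overlap, and the siRNAs gave nearly one value, -1.22 and -1.20 on the log2 scale. The pooled log2 fold change was -1.21 ± 0.28 (SE, adjusted p = 0.00109). miR-3143, between genes on chromosome 6, had 4.87, 13.9 and 13.8 CPM in siCtrl, 3.62, 3.79 and 5.12 CPM with siSFPQ-2 and 4.30, 4.38 and 6.20 CPM with siSFPQ-3. Here replicate 1 of siCtrl was low and overlapped the knockdown libraries. The log2 fold change was -1.24 ± 0.29 (SE, adjusted p = 0.00124) with that library and -1.64 without it.

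miR-4775 lies in an exon of CCNYL1, a cyclin Y-like gene. It had 8.24, 2.32 and 3.85 CPM in siCtrl, 2.11, 1.26 and 1.83 CPM with siSFPQ-2 and 2.26, 2.85 and 3.10 CPM with siSFPQ-3, a log2 fold change of -1.13 ± 0.38 (SE, adjusted p = 0.0177). This fall rests on replicate 1 of siCtrl, without which it was -0.47 with an adjusted p of 0.419. Smaller falls were those of miR-4455 (-1.05, adjusted p = 0.0266), miR-4484 (-0.66, adjusted p = 0.0317) and miR-3200-3p (-0.64, adjusted p = 0.0111), the last from an intron of OSBP2, an oxysterol-binding protein gene. miR-4484 lost its call in 4 of the 24 fits without 1 library. Without replicate 1 of siCtrl it was -0.33 (adjusted p = 0.298), and without siCtrl replicate 2, siSFPQ-2 replicate 1 or siSFPQ-3 replicate 1 its adjusted p was 0.0540 to 0.0609. miR-4455 also lost its call in 4. Without replicate 3 of siCtrl it was -0.61 (adjusted p = 0.261), and without siCtrl replicate 2, siSFPQ-2 replicate 3 or siSFPQ-3 replicate 3 its adjusted p was 0.0617 to 0.0686. miR-3200-3p kept its call in all 24 of these fits and lost it under other scalings, at -0.19 with library totals (adjusted p = 0.454) and -0.48 with spike-in totals (adjusted p = 0.0939).

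In 4 hairpins both arms were members. The 2 arms were counted in the same libraries with the same scaling, so they are not independent measurements. Both arms of miR-4677 were higher: the 5p arm had 31.8, 36.5 and 41.8 CPM in siCtrl, 64.9, 65.3 and 77.6 CPM with siSFPQ-2 and 72.4, 53 and 64.9 CPM with siSFPQ-3, with no overlap. Its log2 fold change was 0.85 ± 0.18 (SE, adjusted p = 0.000600), beside 1.35 for the 3p arm. Both arms of miR-3942 were lower. The 3p arm had 3.00, 5.31 and 6.05 CPM in siCtrl, 2.71, 0.631 and 2.20 CPM with siSFPQ-2 and 0.452, 1.1 and 1.03 CPM with siSFPQ-3, with no overlap, and a log2 fold change of -1.87 ± 0.43 (SE, adjusted p = 0.00111), beside -1.75 for the 5p arm. Its siSFPQ-3 libraries held 2, 5 and 4 counts.

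Of the 4 arms of the other 2 hairpins, 1 was called. miR-7151 lies in an intron of CTNNA3, an alpha-catenin gene, and its 3p arm was lower at -1.32 ± 0.48 (SE, log2, adjusted p = 0.0264), while its 5p arm had -1.03 ± 0.55 and did not pass (adjusted p = 0.133). The 3p arm had 27.7, 8.63 and 14.3 CPM in siCtrl, 6.03, 9.15 and 11 CPM with siSFPQ-2 and 3.62, 3.51 and 8.79 CPM with siSFPQ-3, so the groups overlapped. Without replicate 1 of siCtrl its value was -0.76 with an adjusted p of 0.258, and without replicate 1 of siSFPQ-3 it was -1.21 with an adjusted p of 0.0508. miR-3140 lies in an intron of FBXW7, a ubiquitin ligase gene, and neither arm passed, at 0.66 ± 0.34 for the 5p arm (adjusted p = 0.117) and 0.66 ± 0.28 for the 3p arm (adjusted p = 0.0524). By total counts the larger arm exceeded the smaller 2.79-fold in miR-4677, 3.94-fold in miR-3942, 3.15-fold in miR-7151 and 1.35-fold in miR-3140. Of 15 other members with a second arm listed, the second arm stayed below 240 counts in each, from 9 counts for miR-5588-3p to 198 for miR-5699-5p.

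**Figure D3:**
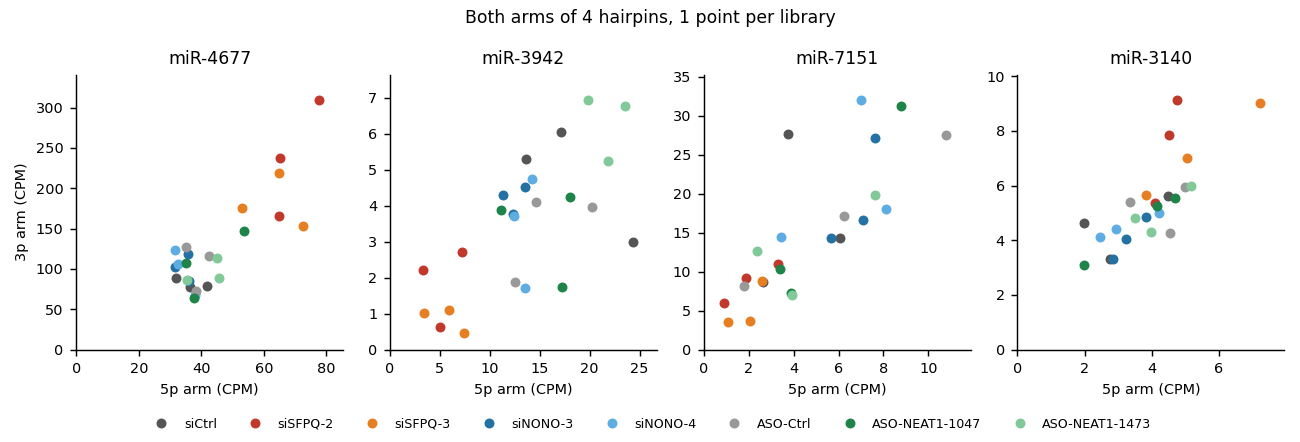
Level in CPM of the 3p arm against the 5p arm for the 4 hairpins with both arms among the members, 1 point per library, coloured by group. For miR-4677 the 6 siSFPQ libraries lie at the upper right (5p arm at 53 CPM or more), and for miR-3942 they lie at the lower left (5p arm at 7.46 CPM or less).

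Several members stayed on the same side in both siRNAs without a call. miR-5001-3p, from an exon of TIGD1, was at 4.28 ± 2.90 CPM (SD, n = 3) in siCtrl, 8.54 ± 2.86 with siSFPQ-2 and 7.62 ± 0.687 with siSFPQ-3, a log2 difference of 0.93 ± 0.40 (SE, adjusted p = 0.0602). miR-3173-5p lies in an intron of DICER1, the gene of the enzyme that cuts precursor hairpins, and had a log2 difference of 0.87 ± 0.45 (SE, adjusted p = 0.119). Its libraries ran from 3.92 to 18.1 CPM across the siSFPQ groups and from 3.30 to 8.62 CPM in siCtrl, so they overlapped. The most abundant member, miR-3613-5p, comes from DLEU2, the noncoding transcript that also holds miR-15a and miR-16-1. It had 121, 209 and 232 CPM in siCtrl, 167, 59.6 and 112 CPM with siSFPQ-2 and 106, 130 and 119 CPM with siSFPQ-3, a log2 difference of -0.70 ± 0.30 (SE, adjusted p = 0.0606).

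Replicate 1 of siCtrl departed from its group in many members. In 17 of the 52 it was at least 2-fold above the mean of replicates 2 and 3, and in 8 it was at least 2-fold below. miR-3615 was 3.08 times that mean, miR-3135b 2.94 times, miR-4429 2.85 times and miR-6718-5p 2.32 times, while miR-3657 was 0.207 times and miR-3611 0.215 times. Without this library 12 members were higher and 10 lower after SFPQ knockdown, and the median log2 fold change of the members was 0.14 in place of -0.13. Of the 19 calls, 15 were kept. miR-4484, miR-4775, miR-7151-3p and miR-4485-3p lost theirs. miR-5001-3p (1.59), miR-3140-5p (1.04), miR-7974 (0.99), miR-3140-3p (0.81) and miR-5699-3p (0.71) were then called higher, and miR-3613-5p (-0.97) and miR-4521 (-0.68) were then called lower. Over all libraries left out in turn, 12 of the 19 calls held in each of the 24 fits.

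The calls were set beside those of early-numbered miRNAs of like abundance, as a description. In the bin of 240 to below 1000 counts, 5 of 33 members were higher (15.2%) and 7 lower (21.2%), against 34 (32.7%) and 9 (8.65%) of 104 miRNAs numbered under 1000. The medians of the log2 fold change were -0.09 and 0.23. In the bin of 1000 to below 10000 counts, 3 of 18 members were higher (16.7%) and 4 lower (22.2%), against 47 (34.6%) and 31 (22.8%) of 136, with medians of -0.13 and 0.15. The difference between the classes was not tested. The median SD of log2 CPM within groups was 0.39 against 0.35 in the lower bin and 0.39 against 0.27 in the upper bin.

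**Figure D4:**
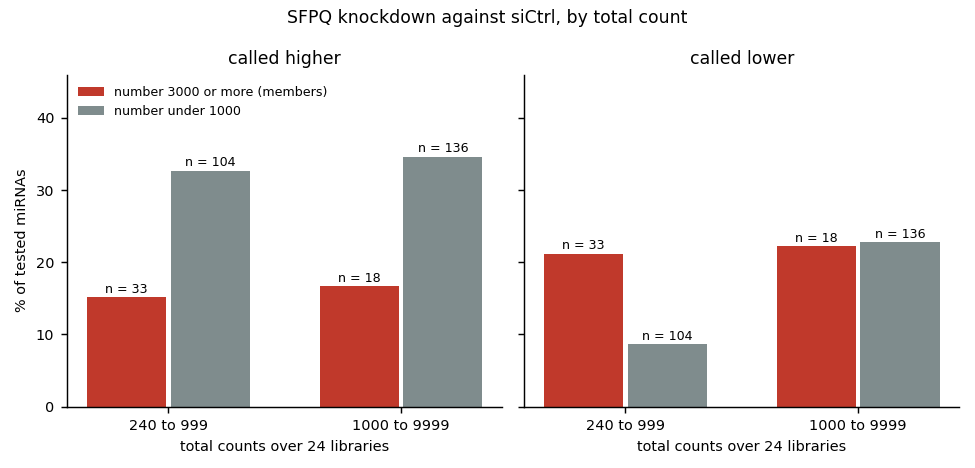
Share of tested miRNAs called higher (left) and lower (right) after SFPQ knockdown, for members and for miRNAs numbered under 1000, in 2 bins of total count. The bars for members called higher stand at 15.2% and 16.7%, below 32.7% and 34.6% for the early-numbered, and of the bars for lower calls the early-numbered one in the lower bin is the shortest at 8.65%.

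The split between directions depends on the scaling of the libraries. With library totals in place of TMM factors, 17 members were higher (32.7%, against 40.3% of all tested) and 6 lower (11.5%, against 10.7%). The median of all tested miRNAs then moved from 0.02 to 0.47. With spike-in totals, 12 were higher (23.1%, against 29.1%) and 7 lower (13.5%, against 14.4%), and that median moved to 0.21. miR-3200-3p, miR-4484, miR-4455 and miR-4775 lost their lower calls under both of these scalings, and miR-7151-3p lost its call with library totals. Under both scalings the members' median stayed below that of all tested miRNAs, at 0.32 and 0.06. The members' share of all counts was 0.0832% ± 0.00372 (SD, n = 3) in siCtrl, 0.119% ± 0.0184 with siSFPQ-2 and 0.120% ± 0.00750 with siSFPQ-3. The means of the other 5 groups lay between 0.0784% and 0.0923%. On TMM-scaled libraries the members summed to 924 ± 61.0 CPM in siCtrl, 1018 ± 139 with siSFPQ-2 and 924 ± 55.1 with siSFPQ-3.

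Loss of SFPQ was also set directly against loss of NONO, a comparison that does not use siCtrl. It called 12 members higher and 15 lower with the SFPQ siRNAs, 51.9% of the members against 56.5% of all tested miRNAs, of which 29.7% were higher and 26.8% lower. DESeq2 called 26 members. The balance of directions turned with the scaling, to 18 higher and 11 lower with library totals and to 16 and 11 with spike-in totals. Of all tested miRNAs, 41.1% were then higher and 14.9% lower with library totals, and 36.4% and 15.2% with spike-in totals. Their median moved to 0.33 and 0.26. The largest difference was that of miR-3174, which stood at 4.85, 3.31 and 2.43 CPM with siNONO-3 and 3.69, 3.44 and 4.53 CPM with siNONO-4, far below the siSFPQ libraries given above. Its log2 difference was 2.13 ± 0.33 (SE, adjusted p = 7.63e-06). miR-4791 followed at 1.52 ± 0.27 (adjusted p = 4.02e-05), with 2.96, 6.15 and 5.21 CPM under siNONO-3 and 2.63, 3.44 and 3.30 CPM under siNONO-4, and miR-4523 differed by 1.11 ± 0.28 (adjusted p = 0.00181). miR-4791, miR-4523 and miR-4425, also called higher here, would fall below 240 counts without their higher siSFPQ level. Their tests are no independent evidence of a difference, and the count of higher members is a description.

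Members without a call against siCtrl also differed between the knockdowns. miR-8485 had 13.3, 16.7 and 3.66 CPM with siSFPQ-2, 9.95, 6.14 and 10.9 CPM with siSFPQ-3, 6.19, 0.946 and 7.64 CPM with siNONO-3 and 5.53, 0.984 and 0 CPM with siNONO-4, a log2 difference of 1.52 ± 0.48 (SE, adjusted p = 0.00952). Its groups overlapped, and replicate 3 of siNONO-4 had no count. miR-3173-5p was higher with the SFPQ siRNAs by 1.28 ± 0.36 (adjusted p = 0.00414), and stood at 4.58, 4.73 and 5.56 CPM with siNONO-3 and 2.63, 2.95 and 5.77 CPM with siNONO-4.

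On the lower side, both arms of miR-7151 passed. The 5p arm had 0.905, 1.89 and 3.29 CPM with siSFPQ-2, 2.04, 1.1 and 2.58 CPM with siSFPQ-3, 5.65, 7.10 and 7.64 CPM with siNONO-3 and 3.42, 8.12 and 7.01 CPM with siNONO-4. All 6 siSFPQ libraries were below all 6 siNONO libraries, and the log2 difference was -1.72 ± 0.42 (SE, adjusted p = 0.00123). The 3p arm differed by -1.58 ± 0.40 (adjusted p = 0.00167), with 14.3, 16.6 and 27.1 CPM under siNONO-3 and 14.5, 18.0 and 32.1 CPM under siNONO-4. miR-4764-5p, at 4.31, 5.20 and 5.56 CPM with siNONO-3 and 5.53, 4.18 and 2.88 CPM with siNONO-4, differed by -1.62 ± 0.33 (adjusted p = 0.000253), and miR-3942-3p by -1.55 ± 0.36 (adjusted p = 0.000830).

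The other 17 called members ran from 0.50 to 1.05 for the 7 that were higher and from -0.61 to -1.47 for the 10 that were lower. Among them both arms of miR-4677 were higher, by 0.95 for the 5p arm and 1.05 for the 3p arm, and miR-3942-5p was lower (-1.24).

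The call of miR-5588-5p, also among the 5 largest lower values, was lost without any 1 of 3 libraries. It lies in an intron of EHHADH, a gene of peroxisomal fatty acid oxidation, and had 76.5, 20.8 and 5.21 CPM with siNONO-3 and 76.4, 24.3 and 9.07 CPM with siNONO-4, while the siSFPQ libraries ran from 3.84 to 20.9 CPM. In both siNONO groups replicate 1 was several times the others. The log2 difference was -1.58 ± 0.53 (SE, adjusted p = 0.0144). It was -0.81 without replicate 1 of siNONO-3 (adjusted p = 0.194), -1.02 without replicate 1 of siNONO-4 (adjusted p = 0.111) and -1.34 without replicate 1 of siSFPQ-3 (adjusted p = 0.0524). miR-5094, in an intron of AP3S2, was high in the same libraries, at 63.0, 21.8 and 10.1 CPM with siNONO-3 and 51.1, 20.7 and 8.65 CPM with siNONO-4. It was also called lower with the SFPQ than with the NONO siRNAs (-1.47 ± 0.39, SE, adjusted p = 0.00263). Its siSFPQ libraries ran from 5.65 to 14.6 CPM, so they overlapped replicate 3 of both siNONO groups. In counts, replicate 1 of siNONO-3 held 284 of miR-5588-5p and 234 of miR-5094, and replicate 1 of siNONO-4 held 290 and 194.

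**Figure D5:**
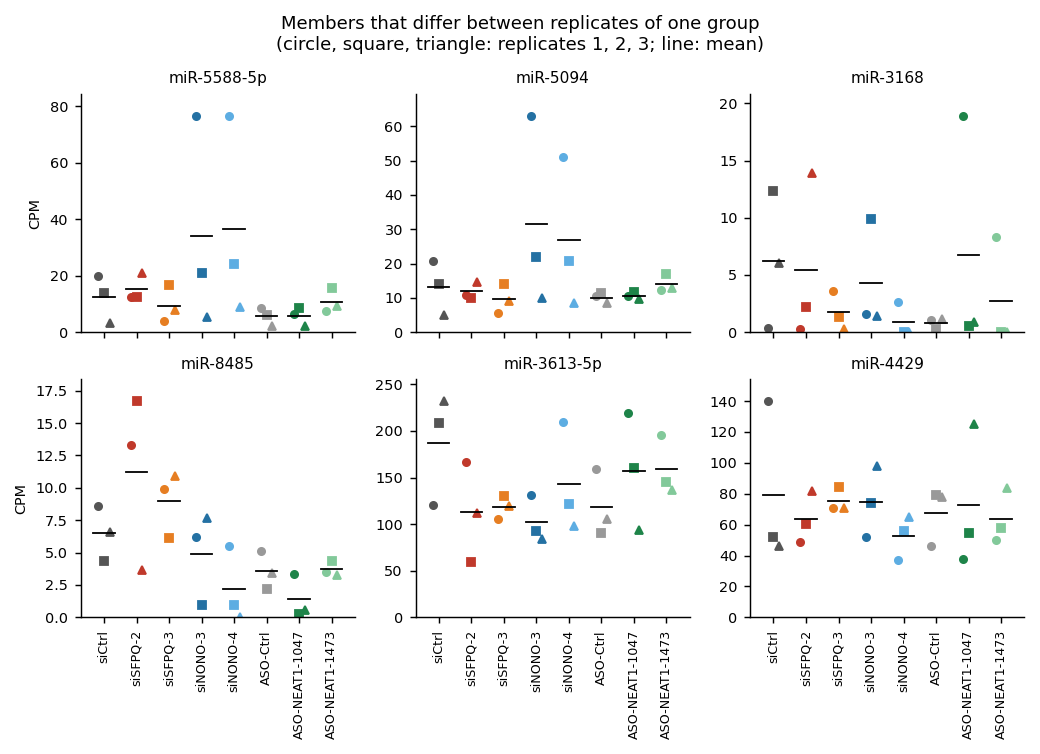
Level in CPM of 6 members whose replicates differ widely, by group, with circles, squares and triangles for replicates 1, 2 and 3 and a line at the group mean. miR-5588-5p reaches 76.5 and 76.4 CPM in replicate 1 of the siNONO groups and stays at 24.3 CPM or less in every other library, and miR-4429 reaches 140 CPM in replicate 1 of siCtrl.

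Loss of NONO against siCtrl called no member, with 1.60% of all tested miRNAs called (0.958% higher and 0.639% lower). Without adjustment, 7 members had a p under 0.05, and DESeq2 called 0. The smallest adjusted p was that of miR-4485-3p, which had 7, 8.99 and 16.7 CPM with siNONO-3 and 10.3, 7.87 and 8.65 CPM with siNONO-4, all above the siCtrl libraries, and a log2 difference of 1.02 ± 0.31 (SE, adjusted p = 0.0911). miR-3149, between genes on chromosome 8, had 8.24, 5.31 and 4.95 CPM in siCtrl, 3.77, 2.37 and 3.12 CPM with siNONO-3 and 4.74, 1.72 and 1.24 CPM with siNONO-4, also without overlap, and a log2 difference of -1.09 ± 0.37 (SE, adjusted p = 0.163). Without replicate 1 of siNONO-4, miR-3149 was called lower (-1.52, adjusted p = 0.0340). miR-3149 was named after its values were seen. The largest differences by size were those of miR-3168 (-1.69 ± 1.17, adjusted p = 0.639) and miR-5588-5p (1.49 ± 0.70, adjusted p = 0.385).

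miR-3168 had the widest replicate spread of all members, with a median SD of 1.65 on the log2 scale. Its row is 17 bases long and it had no count in 4 libraries. In ASO-NEAT1-1047 it had 68, 2 and 3 counts in replicates 1 to 3, and in siSFPQ-2 1, 7 and 38. Within siCtrl it had 1, 37 and 11 counts, so no group mean describes its libraries. miR-5588-5p followed with a median SD of 0.95, miR-8485 with 0.80 and miR-7151-3p with 0.70, and the smallest was that of miR-4677-5p at 0.17.

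Loss of NEAT1, both antisense oligonucleotides against ASO-Ctrl, called no member, as it called 0% of all tested miRNAs. Of the members, 2 had an unadjusted p under 0.05, and DESeq2 called 0. These were miR-4455, at 3.59, 2.19 and 2.55 CPM in ASO-Ctrl, 8.05, 6.48 and 3.22 with ASO-NEAT1-1047 and 7.42, 9.56 and 6.61 with ASO-NEAT1-1473 (log2 difference 1.27 ± 0.39, adjusted p = 0.908), and miR-3200-3p (-0.47 ± 0.19, adjusted p = 0.908). In miR-4455 the knockdown libraries overlapped the controls only through replicate 3 of ASO-NEAT1-1047. Without replicate 3 of ASO-NEAT1-1047, or without replicate 1 of ASO-Ctrl, which both stood apart from their groups, the count of called members remained 0. ASO-Ctrl against siCtrl called no member either, with 0.479% of all tested miRNAs called, 2 members at an unadjusted p under 0.05 and 0 by DESeq2.

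Over all 8 groups in 1 test, 22 of 52 members differed (42.3%), against 49.5% of all tested miRNAs, and DESeq2's likelihood ratio test called 26. By bin, 14 of 33 members below 1000 counts differed (42.4%), against 44 of 104 early-numbered miRNAs (42.3%). In the bin of 1000 to below 10000 counts, 8 of 18 members differed (44.4%), against 88 of 136 (64.7%). The shares are descriptions of lists that the same 24 libraries measured.

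The 2 members that resemble abundant miRNAs were compared with them. miR-4429 had 5297 counts in total, 6.47% of the 81895 counts of miR-320b, and its log2 fold change after SFPQ knockdown was -0.20 ± 0.35 (SE, adjusted p = 0.672), beside -0.08 ± 0.18 for miR-320b. miR-4510 had 252 counts, 0.0142% of the 1776925 counts of let-7c-5p, and a value of -0.75 ± 0.49 (SE, adjusted p = 0.219), beside -0.88 ± 0.21 for let-7c-5p. Whether misread copies of the abundant miRNAs reach these rows was not tested.

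With both SFPQ siRNAs pooled, 33 of the 52 members were not called, 15 with a log2 difference above 0 and 18 below, from -1.05 to 0.95. miR-4521, between genes on chromosome 17, had 50.2, 98.6 and 95.2 CPM in siCtrl, 67.0, 75.1 and 74.3 CPM with siSFPQ-2 and 46.4, 63.1 and 49.6 CPM with siSFPQ-3 (-0.39 ± 0.21, SE, adjusted p = 0.124). siSFPQ-3 alone called it lower (-0.61, adjusted p = 0.0430), and siSFPQ-2 alone did not (-0.17, adjusted p = 0.610). The direct difference between these siRNAs did not pass (-0.44 ± 0.24, adjusted p = 0.703). miR-4521 was lower with the SFPQ than with the NONO siRNAs (-0.63 ± 0.17, adjusted p = 0.00297). miR-6718-5p, in an intron of the antisense RNA DLGAP1-AS3, had 109, 45.5 and 48.4 CPM in siCtrl and 42.2 to 88.5 CPM in the siSFPQ libraries (-0.16 ± 0.32, SE, adjusted p = 0.696). For miR-4429 and miR-6718-5p the sign turned without replicate 1 of siCtrl, to 0.46 and 0.34.

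miR-3940-3p lies in an intron of KHSRP, the gene of a protein that promotes the processing of some miRNA precursors. It had 5.24, 2.99 and 2.20 CPM in siCtrl, 3.02, 5.36 and 6.95 CPM with siSFPQ-2 and 5.65, 3.73 and 2.07 CPM with siSFPQ-3, and the groups overlapped (0.31 ± 0.44, SE, adjusted p = 0.598). The 2 members with another miRNA gene within 10 kb, miR-3187-3p and miR-3176, did not pass either. miR-3187-3p had 16.1, 16.9 and 13.2 CPM in siCtrl and 6.33 to 23.1 CPM in the siSFPQ libraries (-0.20 ± 0.34, SE, adjusted p = 0.665). miR-3176, in an intron of the calpain gene CAPN15, had 14.2, 6.97 and 7.15 CPM in siCtrl and 3.62 to 10.5 CPM in the siSFPQ libraries (-0.24 ± 0.44, SE, adjusted p = 0.679).

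At the edge of the threshold, miR-4523 and miR-4664-5p had 241 counts and miR-4510 had 252. Just outside lay miR-3912-3p with 239 counts, miR-3922-5p with 238 and miR-3605-3p with 237. miR-4664-5p, in an intron of FAM83H, had 0.749, 2.66 and 1.65 CPM in siCtrl, 2.41, 4.10 and 2.56 CPM with siSFPQ-2 and 4.30, 4.60 and 2.07 CPM with siSFPQ-3, and its log2 difference of 0.95 ± 0.44 (SE) did not pass (adjusted p = 0.0829). With all 24 libraries at the mean count of the 18 without an SFPQ siRNA, its total would be 220, below the threshold. Its value is therefore no independent evidence of a rise.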

How the data were processed

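The authors deposited a raw count for each miRNA locus in each library, and per the file headers featureCounts 2.0.3 made it. Aligning and trimming tools named in the submitters' processing notes are Bowtie 1.3.0 and Trimmomatic 0.39, beside UMI-tools 1.1.1, DESeq2 1.38.1, Subread 2.0.3 and hg38. Collapsing of reads by molecular identifier is not given in any source used here. Each of the 24 tables held 2883 loci and 52 spike-ins, for 2652 mature miRNAs, and 169 of these had more than 1 locus. Genes and hosts were read from GENCODE 29, arms and sequences from RefSeq GRCh38.p14. The host genes of 2 members are not reported here.

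The test was edgeR's (version 4.0.16, in R 4.3.3 with limma 3.58.1). Of all miRNAs 626 passed filterByExpr (minimum count 10). Libraries were scaled by TMM, and a single model of the 8 groups used all 24 libraries, which left 16 residual degrees of freedom (biological coefficient of variation 0.25). p-values are from the quasi-likelihood test, adjusted by Benjamini-Hochberg over the 626. Standard errors were computed as log2 fold change over the root of F. CPM used TMM-scaled totals, and a prior count of 2 entered the log2 CPM behind SDs and principal components. Hairpins were folded with RNAfold 2.7.2. The test was checked on simulated counts with rises and falls drawn equally often, so the check does not bear on the choice of scaling. Alternatives included DESeq2 1.42.0, other scalings and filters, and each library left out.

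The members and lists were chosen with earlier results of these data known. Named were the 8 highest and 8 lowest calls per knockdown, 5 each way for SFPQ against NONO, the 5 most abundant members, 3 on each side of the threshold, hairpins with both arms, and members with the seed of another member or of an abundant miRNA. Members named outside this rule were chosen after their values were seen. Counting limits cover counting error only. Replicate numbers were not taken to pair libraries.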

Additional observations from a re-analysis of the deposited data

How the results depend on the processing

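The counts of higher and lower members after SFPQ knockdown (8 and 11) were the same with RLE size factors. They were 17 and 6 with library totals, where 40.3% and 10.7% of all tested miRNAs were called and the members' median became 0.32. Spike-in totals gave 7 lower, and fitting only the compared groups also gave 7 lower. Of the 19 calls, library totals and no filter each kept 14, spike-in totals 15, and DESeq2, RLE factors, the sum over loci and the replicate block 19. With a mean of at least 10 CPM, a threshold of 480 or a threshold of 1000 counts, fewer members were tested, and 4, 5 and 3 were higher, 4, 6 and 4 lower, 8, 12 and 8 differed over the 8 groups, and 11, 15 and 11 differed between SFPQ and NONO knockdown. Without a filter NONO knockdown called miR-5588-5p and miR-5094 higher and miR-3168 lower (2 and 1), and miR-3168 differed between the controls (1).

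Leaving out 1 library gave 7 to 12 higher and 9 to 12 lower after SFPQ knockdown, with a median of -0.30 to 0.14, 18 to 26 over the 8 groups, 24 to 29 between SFPQ and NONO knockdown, 0 to 1 lower after NONO knockdown, and 0 to 0 for NEAT1, for higher after NONO knockdown and between the controls. Deviations from the group means correlated over 0.1 in 52 of 84 same-numbered pairs of libraries (median 0.158) and in 37 of 168 pairs with different numbers (median -0.086). Of the 24 libraries, 18 correlated best with their own number, a hint from the data and not from the design. The replicate block called miR-3149 lower after NONO knockdown (1 member, adjusted p = 0.0480) and added miR-3613-5p (-0.77) and miR-7151-5p (-1.07) to the lower SFPQ calls. The sign of the SFPQ value turned with library totals for miR-4521 (0.04), miR-4429 (0.28), miR-6718-5p (0.31), miR-3187-3p (0.26), miR-3117-3p (0.45), miR-3176 (0.22), miR-3611 (0.33), miR-3657 (0.09), miR-3135b (0.21) and miR-3149 (0.26). Over the fits without 1 library the value ran from -0.49 to 0.46 for miR-4429 (highest without siCtrl replicate 1), from -0.38 to 0.34 for miR-6718-5p and from -0.58 to 0.41 for miR-3135b (both likewise), from -0.57 to 0.33 for miR-3611 (highest without siCtrl replicate 2), from -0.84 to 0.04 for miR-3657 and from -2.06 to 0.09 for miR-3168 (both likewise), and from -0.30 to 0.78 for miR-3615 (lowest without siCtrl replicate 3). None of these was called in the reported fit, and the causes were not tested. Over the 24 libraries 33 of 52 members had fewer than 1000 counts, of which 36.4% were called after SFPQ knockdown, beside 38.9% of the 18 in the next bin. Of all tested miRNAs, 44.2% were called in the bin of 240 to below 1000 counts and 55.7% in the next. How depth bears on the calls was not tested.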
